A study of Mus musculus with 38 samples.

Results

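The 8 genes described here, Mtor, Rptor, Rictor, Tsc1, Tsc2, Rheb, Akt1 and Rps6kb1, encode the core of the signalling pathway that joins group I metabotropic glutamate receptors to protein synthesis. They were chosen by name, with earlier results of these data known, and are 8 of 22443 genes measured. For each gene, footprint counts in the coding sequence (CDS) of its longest transcript were scaled to the CDS total of the library (CPM). All 8 passed the filter on low counts in every comparison below.

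Primary cortical neurons from embryos of CD-1 mice carried a doxycycline-inducible lentivirus encoding a biotin ligase. The ligase was either TurboID-PSD95, carried to dendrites by elements of the PSD95 transcript, or Pan-TurboID, without a localization signal, so that a dendritic position rests on the placement of the bait. Ribosome profiling sequenced footprints, the pieces of mRNA shielded by ribosomes against nuclease digestion, in an input of the whole monosome fraction and in a streptavidin pulldown of biotinylated ribosomes. Per the labels, all 38 libraries came from neurons given cycloheximide for 2 min and biotin for 30 min. Inputs and pulldowns of both baits were made from resting neurons and from neurons depolarized with 55 mM KCl for 1 h after 2 h in tetrodotoxin and DL-AP5, with 3 replicates in each of these 8 groups. DHPG, which activates group I metabotropic glutamate receptors, was given at 100 µM for 10 min after the same silencing to TurboID-PSD95 neurons, from which 3 inputs and 3 pulldowns were made. A further set of TurboID-PSD95 neurons received siRNA to eIF4G2 (20 nM, 72 h) and gave 2 inputs and 2 pulldowns at rest and 2 of each after KCl. After KCl or DHPG the medium was exchanged for one with biotin, for KCl again with both blockers. Neurons then rested before harvest, for 30 min per the labels (after DHPG the study's methods give a shorter time for rest and biotin). In the study's methods cycloheximide was added 2 min before biotin, and so ahead of this labelling step. Which moment between stimulus and harvest the footprints record was not tested. A control siRNA was not analysed here. The resting and untreated groups set against DHPG and knockdown come from the KCl experiment, so treatment and experiment cannot be told apart in those comparisons. For resting neurons the labels give no silencing and no rest. Comparisons of KCl or DHPG with rest may therefore carry these steps as well as the stimulus. The cytosol is named as the region of DHPG inputs and of all knockdown libraries in their sample descriptions, but their lentivirus entry names PSD95-TurboID, and that entry was followed.

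In this pathway the kinase Akt, activated downstream of PI3-kinase, phosphorylates the Tsc2 subunit of the TSC complex and relieves its hold on the small GTPase Rheb. Rheb bound to GTP activates mTOR complex 1, whose scaffold is Raptor (gene Rptor) and which phosphorylates S6 kinase (gene Rps6kb1) and the eIF4E-binding proteins. mTOR complex 2, built around Rictor, phosphorylates Akt in turn. In neurons the pathway is known for its part in protein synthesis at synapses and in long-term depression driven by metabotropic glutamate receptors. Loss of TSC1 or TSC2 causes tuberous sclerosis.

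The start codons and their surroundings are shown because the results turn on where footprints lay before and after them. Each line has 12 bases before the start codon, the start codon ATG in capitals and 9 bases after it, read 5′ to 3′ on the coding strand from GENCODE M21 transcripts of the mm10 (GRCm38) assembly, and ATG was found in the reference genome at the files' coordinates for 8 of 8 genes.
Mtor: cctcagggcaagATGcttgggacg
Rptor: cctcctcccctgATGgagtcggag
Rictor: aaacccgtcaatATGgcggcgatc
Tsc1: ttgagtgagagaATGgcccagtta
Tsc2: gccctgcccaccATGgccaaacca
Rheb: caggccaccaagATGcctcagtcc
Akt1: gccacggataccATGaacgacgta
Rps6kb1: gggtccgggcccATGaggcgacga

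A purine 3 bases before the ATG, which favours initiation, was present in all of these but Rptor and Rps6kb1, and a G directly after the ATG in Rptor, Rictor, Tsc1 and Tsc2. The 5′ UTRs upstream ranged from 20 nt in Rictor to 661 nt in Rptor, with a GC content of 45% in Rictor and 80% in Akt1 at the ends of the range. Mtor, Rictor and Tsc2 had no ATG in the 5′ UTR, Rptor, Akt1 and Rps6kb1 had 1 each, Rheb had 3 and Tsc1 had 4. The upstream ATGs of Rheb, Akt1 and Rps6kb1, whose 5′ UTRs held the largest shares of footprints among the 8 genes, lay in these surroundings, numbered from the first base of the 5′ UTR.
Rheb at 16: ggtgggagggtcATGacgcagcga
Rheb at 287: gccgtgctctgtATGccgcgttct
Rheb at 355: ccgccgcggttaATGtggttgggt
Akt1 at 212: cccgcccgcgggATGcggagcggc
Rps6kb1 at 59: aagcagccggtgATGgcggcagca

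The reading frame of 14 codons that opens at the Rps6kb1 upstream ATG overlaps the start codon out of frame, while the frames of the other upstream ATGs in the 8 genes end before it. Of the upstream ATGs not shown, those of Rptor at 98 and Tsc1 at 17 have an A 3 bases before and a G directly after. A link between upstream ATGs and the shares was not tested.

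The genes differ in size, which matters for every count. On mm10, the CDS of Mtor, the kinase itself, runs from 148452271 to 148556860 on chromosome 4 in 57 segments with 7650 nt, the largest of the 8. Rptor lies on chromosome 11 from 119603810 to 119897482 (4008 nt) and Rictor on chromosome 15 from 6708403 to 6796236 (5127 nt). Tsc1 lies on chromosome 2 from 28658685 to 28687173 (3486 nt) and Tsc2 on chromosome 17 from 24596605 to 24632082 (5358 nt). Rheb, on chromosome 5 from 24803664 to 24842236, has the smallest CDS with 555 nt. Akt1 lies on chromosome 12 from 112654698 to 112671561 (1443 nt) and Rps6kb1 on chromosome 11 from 86502725 to 86544706 (1578 nt). Tsc2, Rheb, Akt1 and Rps6kb1 are on the minus strand. An antisense gene, Rptoros, lies over 84 nt of the Rptor CDS, a segment with 640 counts in all libraries, and the use of strand in counting is not stated. Of all 30-base windows of the 8 CDSs and of the 5′ UTRs that are long enough, 5 of 1066 in the Akt1 CDS occurred elsewhere in the genome without mismatch and none in the other genes.

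Libraries held 5906281 to 35643247 counts in total, of which CDSs of the longest transcripts held 2047169 to 14636018. In KCl replicate 1 these CDSs held 2106398 of 16918170 counts in the Pan-TurboID input and 3181080 of 21160971 in its pulldown. With TurboID-PSD95 they held 2345855 of 9475681 in the input and 2055596 of 12413197 in the pulldown. The Pan-TurboID input of KCl replicate 2 had 8436414 of 21583218, and the knockdown KCl pulldown of replicate 1 had 2618994 of 13372008. The part of these CDS shares in the KCl comparisons was not tested. Summed over 7 markers each, neuronal genes held 4736.6 to 10164 CPM per library, astrocyte genes 219 to 1413, genes of the oligodendrocyte lineage 29.9 to 372 and microglial genes 0 to 24.9, and 5 endothelial markers held 5.54 to 96.4. Arc and Fos rose in KCl inputs by 3.48 and 3.10 on the log2 scale. Eif4g2 was lower with the siRNA by -0.98 in resting inputs, where its level was 284 CPM against 570.1 CPM untreated. The depolarized TurboID-PSD95 pulldown of replicate 2 stood apart: 18.7% of the 5′ UTR and CDS counts of all other genes lay in 5′ UTRs there, the highest among pulldowns, whose median was 6.54%, and near the inputs' median of 20.6%. For comparisons that used it, the range of the members' values without it, or the values whose call changed, are given as well. In whole cultures, fewer cells of a type and fewer footprints per cell cannot be told apart, and p-values measure the spread between these libraries.

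All 8 genes were measured in every library. Counted in reads, the lowest CDS count of any library was 18 for Rps6kb1 and 373 for Mtor, and the highest was 297 for Rps6kb1 and 5224 for Mtor. Per length, as RPKM scaled to CDS totals and averaged over all 38 libraries, Rheb stood highest with 94.7, followed by Akt1 with 42.9, Mtor with 34.1 and Tsc2 with 30.7. Rptor had 22.1 RPKM, Rictor and Tsc1 had 13.7 each, and Rps6kb1, the S6 kinase, was lowest with 11.6, below the median gene with 18.7. Among 12910 genes with a mean of at least 1 CPM, Rheb thus sat at the percentile 87.0 and Rps6kb1 at 37.4.

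**Figure D1:**
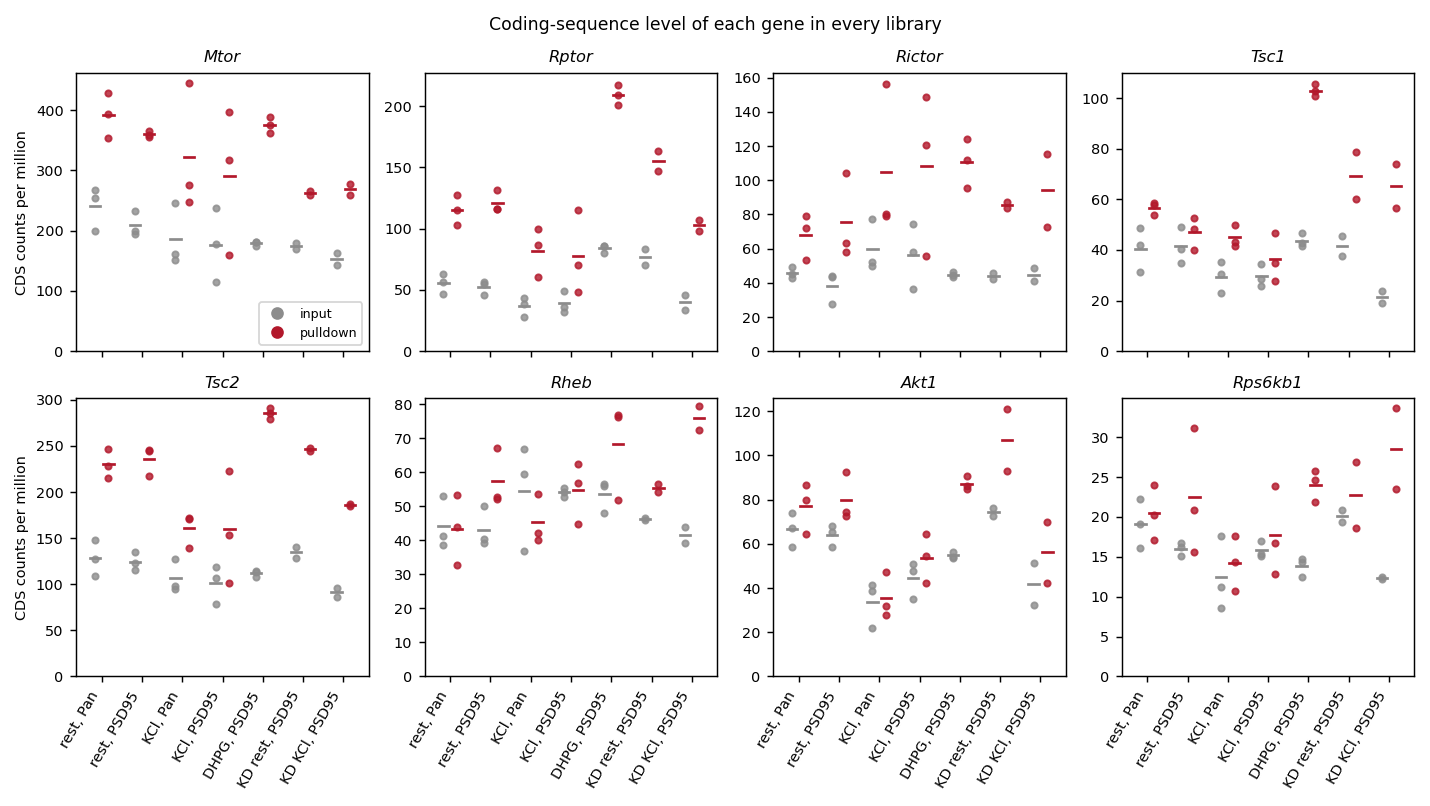
Each panel plots 1 gene, with the level in CPM of every library as a point against the 14 groups and a bar at each group mean. Pulldowns of Mtor, Rptor, Rictor and Tsc2 lie above the input of the same culture in 12 of 12 cultures of the KCl experiment. They lie above the same-numbered input in 7 of 7 other pairs. These genes have the longest CDSs among those plotted, and how many of all genes do the same was not counted. The DHPG pulldowns of Rptor, Rictor, Tsc1 and Tsc2 have the highest group mean of their panel.

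Ordered by group mean, the 14 groups formed a near-continuous row for most genes. Neighbours in that order lay further apart than their spread, taken as the root of the summed squared SDs, in 0 of 13 steps for Akt1, Rictor and Rps6kb1, 1 for Rheb, 2 for Mtor, 3 for Tsc1, 4 for Tsc2 and 5 for Rptor. For Rptor, Tsc1 and Tsc2 the top group stood apart from the next: the DHPG pulldowns led with means of 209 CPM, 103 CPM and 285 CPM. The next groups, all pulldowns, were at 155 CPM, 69.4 CPM and 246 CPM. Across the 14 group means the levels of Rptor and Tsc2 ran together most closely (Pearson r of log2 CPM 0.94), and Rictor and Akt1 least (r 0.13). These points share libraries between inputs and pulldowns of 1 culture and are a description.

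To ask where the pathway's mRNAs were translated at rest, TurboID-PSD95 pulldowns were set against the averaged inputs of both baits. Transcripts of the scaffold and catalytic parts of the mTOR complexes and of Tsc2 were higher in the pulldown, with log2 fold changes of 0.71 to 1.19, and those of Tsc1, Rheb, Akt1 and Rps6kb1 did not pass the test. In edgeR's quasi-likelihood test 4 of the 8 genes passed a false discovery rate (FDR) of 0.05 and all 4 were higher, where 14.7% of all genes tested were called higher. The median log2 fold change was 0.57 over the 8 genes and -0.04 over all genes. Neuronal markers held 7671 to 8317 CPM in the resting inputs of both baits and 6545 to 7262 CPM in these pulldowns, and markers of the oligodendrocyte lineage 194.7 to 372 and 86.5 to 191 CPM. Their part was not tested.

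For Rptor, the scaffold that recruits substrates to mTOR complex 1, the resting TurboID-PSD95 inputs had 54.9, 56.3 and 45.8 CPM and the Pan-TurboID inputs 63.4, 56.1 and 47.0 CPM. The TurboID-PSD95 pulldowns had 131, 116 and 116 CPM, all above every input. The log2 fold change was 1.19 (SE 0.23, edgeR FDR 0.000974). Tsc2, the subunit that acts on Rheb, went from 135, 123 and 115 CPM in TurboID-PSD95 inputs and 148, 127 and 109 CPM in Pan-TurboID inputs to 245, 217 and 245 CPM in the pulldowns. Its groups did not overlap either (log2 fold change 0.93, SE 0.20, edgeR FDR 0.00177).

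Mtor had 233, 194 and 199 CPM in TurboID-PSD95 inputs, 254, 267 and 199.5 CPM in Pan-TurboID inputs and 365, 356 and 359.5 CPM in the pulldowns, which were all higher (log2 fold change 0.71, SE 0.25, edgeR FDR 0.0351). Rictor, the scaffold of mTOR complex 2, had 44.3, 27.9 and 43.2 CPM in TurboID-PSD95 inputs and 49.5, 45.4 and 42.7 CPM in Pan-TurboID inputs. In the pulldowns it had 104, 58.3 and 63.5 CPM (log2 fold change 0.87, SE 0.29, edgeR FDR 0.0261), again all above the inputs. Of the genes that did not pass, Rheb had a log2 fold change of 0.42 (SE 0.20), Rps6kb1 of 0.41 (SE 0.27), the kinase Akt1 of 0.31 (SE 0.19) and Tsc1, which stabilizes Tsc2, of 0.22 (SE 0.21).

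These calls depended on libraries and on CDS length. Without replicate 3 none of the 4 passed, with log2 fold changes of 0.64 for Mtor (FDR 0.267), 1.13 for Rptor (FDR 0.0723), 0.99 for Rictor (FDR 0.148) and 0.82 for Tsc2 (FDR 0.109), and 16 of all genes were called, against 4048. Mtor also failed without replicate 2 and Rictor without replicate 1. With each library's trend of level with CDS length removed, Rptor (0.80, FDR 0.00372) and Tsc2 (0.46, FDR 0.0269) were still called, Mtor (0.16) and Rictor (0.41) were not, and Rheb, with the shortest CDS, was called higher at 1.09 (FDR 0.00256).

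**Figure D2:**
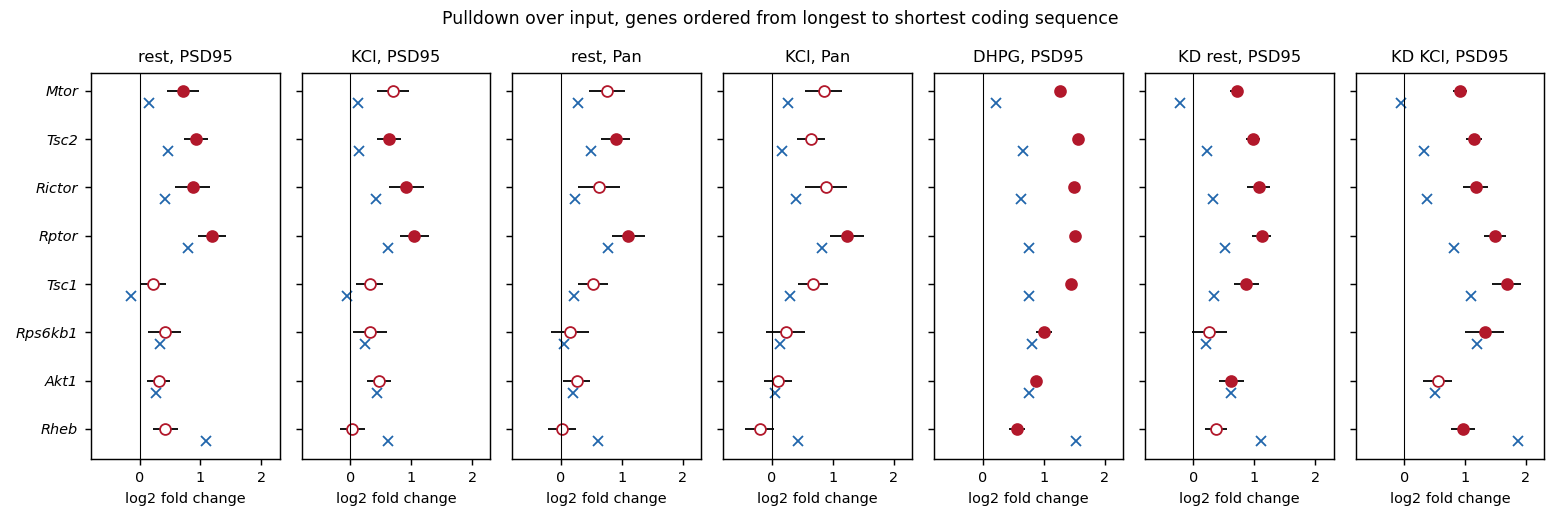
Each panel plots 1 comparison of pulldown over input, with the log2 fold change of each gene as a circle with its SE, filled where the edgeR FDR was under 0.05, and as a cross with the CDS length trend removed. The circles of Rptor lie above 1 in every panel and all 8 are filled after DHPG, and the crosses lie left of the circles except for Rheb, where they lie right.

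After KCl, 3 of the 8 genes were called higher in the depolarized TurboID-PSD95 pulldown over inputs, against 11.2% of all genes: Rptor by 1.05 (SE 0.23, edgeR FDR 0.00499), Rictor by 0.92 (SE 0.29) and Tsc2 by 0.63 (SE 0.20) on the log2 scale. A replicate block, for the replicate number within each condition and shared by both baits, was fitted as an alternative. With it, or without the pulldown of replicate 2 that stood apart, Mtor (0.67 and 1.00) and Akt1 (0.47 and 0.63) passed as well, which made 5. The genes called higher among all rose from 1452 to 2232 with the block and to 2159 without that pulldown. Without that pulldown Rptor had 1.33, Rictor 1.25 and Tsc2 0.89, and Tsc1 (0.50), Rps6kb1 (0.54) and Rheb (0.01) were not called. Neuronal markers held 5440 to 5846 CPM in the 3 pulldowns and 6157 to 10164 CPM in the KCl inputs of both baits, and their part was not tested. Without replicate 3 none of the 3 passed, and Tsc2 failed without replicate 1 too. With the length trend removed Rptor alone was called (0.62, FDR 0.035). The change of the enrichment with KCl was called for none of the 8 genes, with differences from -0.39 for Rheb to 0.16 for Akt1 on the log2 scale. Without the pulldown that stood apart they ran from -0.45 for Rheb to 0.33 for Rictor, none called. The share called among all genes was 0, and 342 genes had an unadjusted p under 0.05 but none of the 8.

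The same comparison was made for the bait without a localization signal. In resting Pan-TurboID pulldowns over their own inputs, Rptor (1.10, SE 0.27, edgeR FDR 0.0215) and Tsc2 (0.90, SE 0.23, FDR 0.0255) were called higher, against 4.52% of all genes. For Rptor the Pan-TurboID pulldowns had 103, 115 and 127 CPM, a range that meets that of the TurboID-PSD95 pulldowns. After KCl, Rptor alone was called (1.23, SE 0.28, FDR 0.0167), against 5.13% of all genes higher. With the replicate block, Mtor and Rictor joined at rest, making 4, and Mtor, Rictor, Tsc1 and Tsc2 joined after KCl, making 5. Over all genes the block raised the genes called higher from 588 to 1692 at rest and from 667 to 1840 after KCl. With the length trend removed neither resting call held (Rptor 0.76, FDR 0.0531, and Tsc2 0.49, FDR 0.101). None of the Pan-TurboID calls held without replicate 2 or without replicate 3.

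The direct test of TurboID-PSD95 against Pan-TurboID enrichment called none of the 8 genes in edgeR or DESeq2. None of them had an unadjusted edgeR p under 0.05, beside 169 of 13003 genes. Of all genes, 0.00769% passed, which is 1 gene, Dlg4, the gene of PSD95 whose sequence the bait carries. The differences ran from -0.32 for Tsc1 (95% interval -0.81 to 0.16) to 0.35 for Rheb (-0.11 to 0.81) on the log2 scale. For Rptor the difference was -0.03 with an interval of -0.57 to 0.50, so that a stronger enrichment in dendrites, by up to 0.50 on the log2 scale, lay within the error. Without the depolarized TurboID-PSD95 pulldown of replicate 2 the differences ran from -0.22 for Tsc1 to 0.42 for Rictor, none called, and that of Rptor was 0.12.

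To ask how footprints of the pathway differed after depolarization, KCl inputs of both baits were compared with resting inputs. Silencing and rest are given for the KCl neurons and not for the resting ones, and their part was not tested. Akt1, the kinase at the head of the chain, fell relative to other genes, and no other gene of the 8 passed. Counts are scaled within each library, so a change shared by all genes does not show in these values. The study reports fewer ribosomes on CDSs and less puromycin incorporation after KCl. The share of all genes called lower was 9.02%. The resting inputs of Akt1 had 65.5, 68.2 and 58.5 CPM with TurboID-PSD95 and 73.7, 67.4 and 58.8 CPM with Pan-TurboID. After KCl the inputs had 35.0, 50.8 and 47.6 CPM and 21.8, 38.5 and 41.3 CPM. All 6 depolarized inputs were below all 6 resting inputs, and the log2 fold change was -0.71 (SE 0.16, edgeR FDR 0.00317). Over 10 alternatives it lay between -0.86 and -0.54 with FDRs from 0.000612 to 0.0571, the highest of these without replicate 2, where it failed. Same-numbered inputs of the 2 baits deviated together from their group means (r 0.275 to 0.643), so the 12 inputs are not fully independent of each other. Summed neuronal markers held 7671 to 8317 CPM in resting and 6157 to 7495 CPM in KCl inputs of TurboID-PSD95, and markers of the oligodendrocyte lineage 199.7 to 372 CPM and 86.1 to 199.2 CPM. With Pan-TurboID both ranges overlapped. The part of these markers in the fall was not tested.

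In the pulldowns Akt1 fell as well with Pan-TurboID. Its levels were 86.7, 64.3 and 79.7 CPM at rest and 28.0, 31.8 and 47.0 CPM after KCl, without overlap (log2 fold change -1.06, SE 0.23, edgeR FDR 0.00549), where 3.15% of all genes were called lower. This call was lost without replicate 2 (-1.07, FDR 0.107) and without replicate 3 (-1.22, FDR 0.118), where 165 and 74 of all genes were called, against 654. In TurboID-PSD95 pulldowns Akt1 had 74.6, 72.7 and 92.3 CPM at rest and 64.2, 42.3 and 54.3 CPM after KCl. The fold change there, -0.55 (SE 0.23, edgeR FDR 0.149), did not pass, and none of the 8 genes did, against 6.58% of all genes called in either direction. Of the 8, 3 had an unadjusted edgeR p under 0.05, beside 2821 of 13003 genes. Without replicate 1 Rptor (-1.02), Tsc2 (-0.90) and Akt1 (-0.81) passed, where 1446 of all genes were called in either direction, against 855. Without the KCl pulldown of replicate 2 alone none passed, with values from -0.39 for Akt1 (FDR 0.424) to 0.88 for Rictor (FDR 0.135). Summed neuronal markers were lower in these KCl pulldowns (5440 to 5846 CPM) than in the resting ones (6545 to 7262 CPM), and their part in the values was not tested.

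The other members spread to both sides. In inputs Rptor had -0.48 (SE 0.20, FDR 0.0977) and Tsc1 -0.45 (SE 0.18, FDR 0.0853) on the log2 scale, and neither passed. Rptor passed with the 12 inputs fitted alone (FDR 0.0478), and both passed without replicate 1. Rictor, with 0.50 (SE 0.25), and Rheb, with 0.34 (SE 0.17), had positive values that did not pass. Mtor (-0.26), Tsc2 (-0.24) and Rps6kb1 (-0.28) had small negative ones. The median over the 8 genes was -0.27 in inputs, beside -0.01 over all genes.

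**Figure D3:**
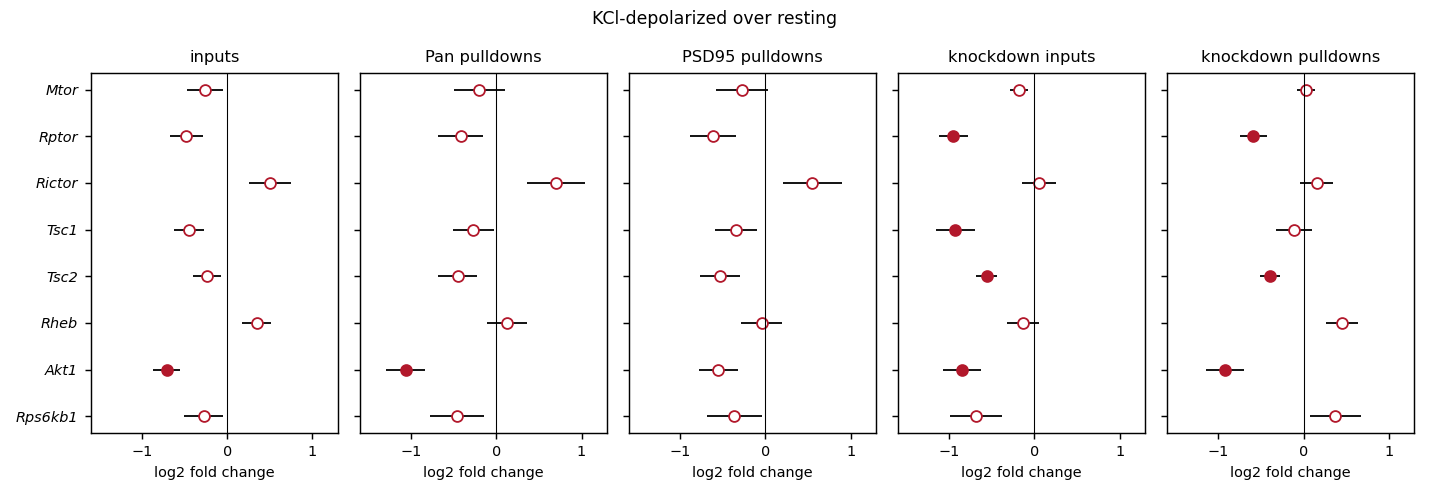
The log2 fold change of KCl over rest with its SE is plotted for each gene in inputs, Pan-TurboID pulldowns, TurboID-PSD95 pulldowns and the knockdown libraries (1 panel each), filled where the edgeR FDR was under 0.05. Akt1 is below 0 throughout, at -0.71 in inputs and -1.06 in Pan-TurboID pulldowns, and Rictor has a positive value in inputs and in pulldowns of both baits.

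DHPG gave the clearest pulldown over input. All 8 genes were higher in the pulldown, against 40.5% of all genes called higher. Neuronal markers held 9451 to 9649 CPM in these inputs and 7596 to 7663 CPM in the pulldowns, astrocyte markers 219 to 229 and 238 to 258, and markers of the oligodendrocyte lineage 54.6 to 62.9 and 29.9 to 35.4. Their part was not tested. Between replicates, the chi-square per degree of freedom was 1.48 to 1.90 for inputs and 2.83 to 8.88 for pulldowns, where sampling noise gives about 1. Tsc1, which did not pass at rest, had 46.6, 41.6 and 42.6 CPM in DHPG inputs and 106, 101 and 103 CPM in DHPG pulldowns (log2 fold change 1.44, SE 0.08, edgeR FDR 1.48e-11). Rptor went from 86.1, 85.7 and 80.5 CPM to 217, 201 and 209 CPM (log2 fold change 1.52, SE 0.07). The rise of Tsc2 was 1.56 (SE 0.06), that of Rictor 1.51 (SE 0.10) and that of Mtor 1.28 (SE 0.06). The genes with short CDSs rose less, Rps6kb1 by 1.00 (SE 0.13), Akt1 by 0.88 (SE 0.08) and Rheb by 0.56 (SE 0.13, edgeR FDR 0.000708). With the length trend removed all 8 were still called, but the order turned, from 0.23 for Mtor to 1.54 for Rheb.

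Against the resting TurboID-PSD95 libraries of the other experiment, DHPG inputs had more Rptor and DHPG pulldowns more of 7 genes. In inputs Rptor was higher by 0.78 (SE 0.11, edgeR FDR 5.51e-05), 1 of 8 genes called beside 16.3% of all genes higher. Rheb had 0.40 (SE 0.16, FDR 0.064) and passed under 4 alternatives. In pulldowns the count was 7 of 8, all higher, beside 21.7% of all genes. Tsc1 changed most, from 52.5, 40.1 and 48.4 CPM at rest to the values above (log2 fold change 1.37, SE 0.14, edgeR FDR 9.78e-07), followed by Rptor with 1.02 (SE 0.11) and Rictor with 0.77 (SE 0.19). Tsc2 rose by 0.51, Rheb by 0.48, Akt1 by 0.38 and Mtor by 0.30, while Rps6kb1 had 0.29 (FDR 0.276). Leaving out 1 replicate number ended the calls of Mtor (number 1 or 3), Rheb and Akt1 (number 1 or 2), and without number 2 Rps6kb1 passed (0.62, FDR 0.0457), so 4 to 6 genes passed. Cell-type markers moved with this comparison: summed astrocyte markers held 219 to 229 CPM in DHPG inputs against 532 to 1057 CPM at rest, markers of the oligodendrocyte lineage 54.6 to 62.9 against 199.7 to 372, and neuronal markers 9451 to 9649 against 7671 to 8317. In pulldowns the astrocyte sums were 238 to 258 CPM against 629.7 to 1413 CPM and the neuronal sums 7596 to 7663 against 6545 to 7262. Fos had 41.4, 39.4 and 37.6 CPM in DHPG inputs and 184, 465 and 355 CPM in resting inputs. Their part in the differences was not tested. Drug and experiment cannot be told apart here.

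In neurons with siRNA against eIF4G2, a translation factor related to eIF4G, KCl inputs had less Rptor, Tsc1, Tsc2 and Akt1 than resting inputs. These 4 of 8 genes were called lower, beside 10.3% of all genes. Rptor had 70.5 and 83.2 CPM at rest and 34.0 and 46.2 CPM after KCl (log2 fold change -0.95, SE 0.17, edgeR FDR 0.000199). Akt1 had 72.6 and 76.1 CPM and 32.1 and 51.5 CPM (-0.85, SE 0.22, FDR 0.0067). Both pairs were separate. Tsc1 changed by -0.93 (SE 0.23) and Tsc2 by -0.56 (SE 0.12). Leaving out a library leaves its group with 1, which is then assumed to vary like the other groups. Among these 4, the Rptor call alone held whichever library was left out: Tsc1, Tsc2 and Akt1 failed without the resting input of replicate 2, Tsc2 and Akt1 without the KCl input of replicate 1, and Tsc1 without the KCl input of replicate 2. Summed neuronal markers held 8642 to 8871 CPM in resting and 6764 to 6914 CPM in KCl inputs of the knockdown, and astrocyte markers 594 to 609 CPM and 724 to 758 CPM. Their part was not tested.

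After KCl, knockdown pulldowns had less Rptor (-0.59, SE 0.16), Tsc2 (-0.40, SE 0.12) and Akt1 (-0.93, SE 0.22, edgeR FDR 0.00321), 3 of 8 genes beside 12% of all genes called lower. Akt1 failed without the KCl pulldown of replicate 1 and Tsc2 without the resting pulldown of replicate 1. Neuronal markers went from 6535 to 6680 CPM at rest to 4737 to 4777 CPM after KCl in these pulldowns and astrocyte markers from 502 to 646 CPM to 671 to 902 CPM, and their part was not tested. The difference of the KCl response between knockdown and untreated neurons was called for none of the 8 genes in inputs or in pulldowns. Of all genes 0.00759% were called in inputs and 0.448% in pulldowns, and DESeq2 called none of the 8. None of the 8 had an unadjusted edgeR p under 0.05, beside 367 of 13180 genes in inputs and 1249 in pulldowns. Without the untreated KCl pulldown of replicate 2 none was called either, with differences from -0.72 for Rictor to 0.53 for Rheb. A larger loss with the knockdown was therefore not shown for any of them.

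Within the knockdown, Rptor, Rictor, Tsc2, Tsc1 and Mtor were higher in pulldowns than in inputs both at rest and after KCl. At rest 6 genes were called, all higher, beside 22.1% of all genes: Rptor (1.12), Rictor (1.07), Tsc2 (0.98), Tsc1 (0.86), Mtor (0.71) and Akt1 (0.62). After KCl 7 were called, all higher, beside 24% of all genes, led by Tsc1 (1.68, SE 0.24), Rptor (1.48, SE 0.18) and Rps6kb1 (1.32, SE 0.32). Akt1 had 0.55 (FDR 0.0602) there, and was called with the likelihood ratio test, without a filter on low counts and with the replicate block (FDRs 0.0316 to 0.0417), and, at 0.89 and 0.88, without the KCl input of replicate 2 or the KCl pulldown of replicate 1. With the length trend removed Rptor and Akt1 alone of these 6 were still called at rest, while Rictor (0.33, FDR 0.201), Tsc1 (0.34, FDR 0.207) and Tsc2 (0.22, FDR 0.151) were not and Rheb was called at 1.11. After KCl Rictor lost its call (0.38, FDR 0.164). Mtor turned to -0.23 at rest and -0.06 after KCl, neither called. At rest, leaving out 1 library ended the call of Akt1 (either input, or the pulldown of replicate 2) or of Tsc1 (the pulldown of replicate 1). Neuronal markers held 8642 to 8871 CPM in knockdown inputs and 6535 to 6680 CPM in pulldowns at rest, and 6764 to 6914 CPM and 4737 to 4777 CPM after KCl, and their part was not tested.

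Against untreated libraries, none of the 8 genes was called in resting inputs (3.89% of all genes), KCl inputs (5.29%) or resting pulldowns (9.14%). DESeq2 called none of them either. An unadjusted edgeR p under 0.05 was met by 1, 0 and 1 of the 8, beside 2272, 2743 and 3103 of 13180 genes. Knockdown and experiment cannot be told apart here. In KCl pulldowns Tsc1 was higher by 0.91 (SE 0.27, edgeR FDR 0.0205), 1 of 8 beside 7.99% of all genes higher. Its values were 56.5 and 73.8 CPM with and 46.7, 27.9 and 34.9 CPM without siRNA, which do not overlap. The call failed without either knockdown number, without untreated number 2 or 3, and without the untreated KCl pulldown of replicate 2 alone (0.74, FDR 0.0756), where the other genes ran from -0.45 for Rictor to 0.57 for Rps6kb1. Neuronal markers held 4737 to 4777 CPM in KCl pulldowns with and 5440 to 5846 CPM without siRNA, and their part was not tested. Without untreated number 1, Rptor (0.90, FDR 0.00602), Tsc2 (0.64) and Rps6kb1 (1.07) were called too, which made 4, while the genes called higher among all rose from 1053 to 1760.

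As a share of counts, footprints in 5′ UTRs set 2 of the genes apart. Summed over all libraries, 56.0% of the 5′ UTR and CDS counts of Rheb and 46.0% of those of Akt1 lay in the 5′ UTR, at the percentiles 95.95 and 92.1 of 11133 genes. Rps6kb1 had 21.9%, above the median gene with 13.4%, and Tsc1 with 12.6% and Rptor with 10.8% were below it. Tsc2 (3.99%), Rictor (2.86%) and Mtor (2.64%), the genes without an upstream ATG, were lowest among the 8. The share is not scaled to the lengths of 5′ UTR and CDS, and per nt of 5′ UTR these genes were not lowest. Over all libraries, Rictor had 23.5 counts per nt of 5′ UTR, Mtor 18.275 and Tsc2 13.739. Rps6kb1 had 11.99, Tsc1 7.644 and Rptor 4.112, while Rheb (39.446) and Akt1 (33.922) were highest. Per the file headers, footprints were counted at their 5′ ends without an offset, so ribosomes on the first codons count towards the 5′ UTR.

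The share was lower in pulldowns than in inputs for every gene. In Rheb the median fell from 67.8% over 19 inputs to 33.5% over 19 pulldowns, in Akt1 from 62.2% to 24.9% and in Rps6kb1 from 31.7% to 8.98%. The pulldown was below the input of its own culture in 12 of 12 cultures of the KCl experiment for these 3, Mtor and Tsc2, in 11 for Rptor and Rictor and in 10 for Tsc1. In the DHPG and knockdown experiments a pairing by number was not seen in the data, and all 8 genes were lower in 7 of 7 same-numbered pairs. The summed counts of all other genes moved the same way in all of these, from a median of 20.6% to 6.54%, so the direction is shared by the libraries as a whole. The highest pulldown value of Rheb, 66.4%, was in the depolarized TurboID-PSD95 pulldown of replicate 2. Over the 18 other pulldowns the medians were 32.2% for Rheb, 23.9% for Akt1 and 8.78% for Rps6kb1, and 6.49% for all other genes.

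**Figure D4:**
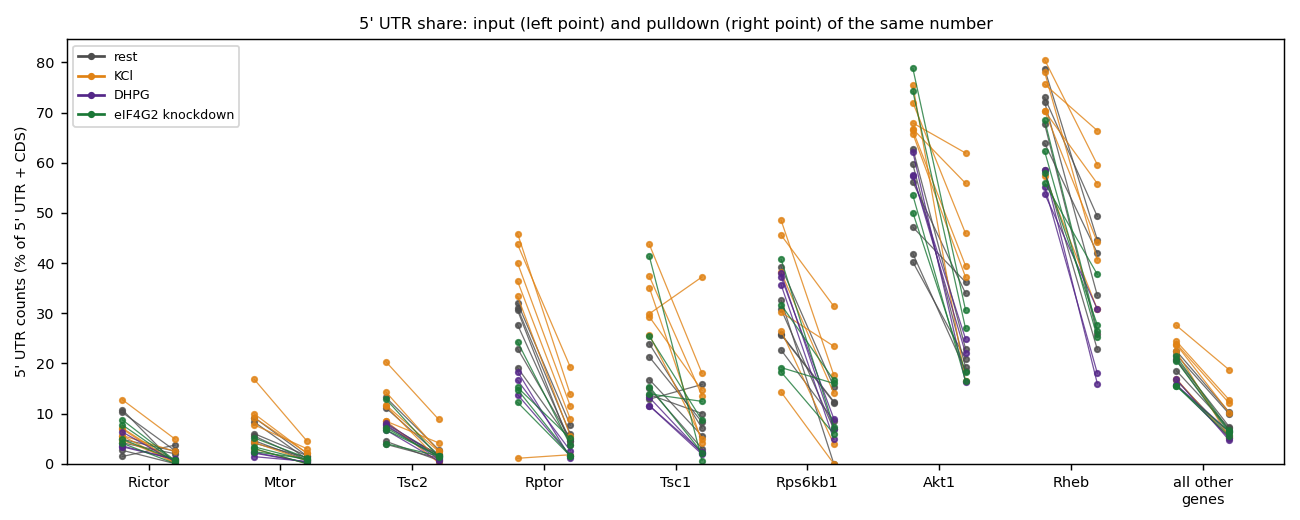
The percent of 5′ UTR and CDS counts that lay in the 5′ UTR is plotted for every library, with a column for each gene and 1 for all other genes together, and a line joins the input (left point) and the pulldown (right point) of the same number, coloured by treatment. Inputs of Rheb span 53.8% to 80.5% and those of Mtor 1.40% to 16.8%, and most lines slope down, with exceptions in Rptor, Rictor and Tsc1.

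With KCl the 5′ UTR share of Akt1 and of Tsc1 rose in inputs. For Akt1 the resting inputs had 41.9, 56.1 and 59.7% with TurboID-PSD95 and 40.2, 47.2 and 62.8% with Pan-TurboID. The KCl inputs had 75.4, 66.7 and 65.8% and 66.4, 67.9 and 72.0%, all above every resting input. The mean went from 51.3% ± 9.53 (SD, n = 6) to 69.1% ± 3.84 (n = 6), a rise of 17.7 percentage points (two-sided exact permutation p = 0.00216, the smallest that 6 against 6 can give, 0.0173 after Benjamini-Hochberg adjustment over 16 tests). For Tsc1 the resting inputs had 16.8, 12.9 and 13.8% and 23.9, 15.0 and 21.3%, from 27 to 106 counts in the 5′ UTR. The KCl inputs had 25.7, 29.9 and 37.3% and 35.1, 29.3 and 43.7%, again without overlap. The Tsc1 mean went from 17.3% ± 4.41 to 33.5% ± 6.53 (SD, n = 6 each), by 16.2 percentage points with the same exact permutation p and adjusted value.

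Within the baits the rise was 16.8 and 18.7 points for Akt1 and 16.5 and 15.96 points for Tsc1 with TurboID-PSD95 and Pan-TurboID. All other genes together moved from 20.1% to 23.1%, and how many of them would pass this test is not known. For the other 6 genes the adjusted exact p was 0.182 or higher, and Rptor passed without the depolarized Pan-TurboID input of replicate 1, which had 1.08%. Same-numbered inputs of the baits deviated together, so they are not fully independent, and over the 3 numbers per condition an exact test cannot go below 0.1. The share was examined after its values had been seen. In the knockdown libraries, not part of that test, Akt1 had 53.5 and 50.0% in resting and 78.8 and 74.2% in KCl inputs. Tsc1 had 15.4 and 13.9% in resting and 25.4 and 41.3% in KCl inputs. All other genes together were higher after KCl there too, with 15.5 and 15.5% in resting and 20.5 and 21.4% in KCl inputs.

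Of the counts behind these shares, the CDS count of Akt1 alone was called. The CDS level of Akt1 fell as given above, while its 5′ UTR count, tested across all genes with the CDS scaling, had a log2 fold change of 0.32 (SE 0.35) and did not pass. For Tsc1 the CDS value in inputs did not pass, as given above, and the 5′ UTR value was 0.85 (SE 0.44), also not called. None of the 8 passed in inputs, where 0.442% of all 5′ UTRs did, or in TurboID-PSD95 pulldowns, where 0.275% did. Without the KCl pulldown of replicate 2 none passed in the latter, with FDRs from 0.715 for Rictor, and Rheb had 0.46 (FDR 0.93). With it Rheb had the largest value, 1.11 (SE 0.49, edgeR FDR 0.321), and the median was 0.54 over the 8 genes and 0.65 over all.

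Along the CDS, footprints in inputs lay further towards the start codon than those in pulldowns. The front share was taken as the percent of CDS counts in exon segments whose middle lies before the middle of the CDS. In inputs its median was 72.5% for Akt1, 67.1% for Mtor, 66.5% for Rictor, 64.7% for Tsc2, 63.1% for Tsc1, 58.5% for Rptor, 57.8% for Rheb and 51.8% for Rps6kb1. In pulldowns the medians were 41.3%, 49.7%, 47.3%, 46.7%, 51.4%, 44.2%, 27.4% and 36.2% in the same order. Over the 18 pulldowns other than the one that stood apart they ran from 26.2% for Rheb to 51.0% for Tsc1. Front segments made up 49.69% of the CDS length of Mtor, so its pulldown median was that of an even spread, 49.55% of that of Rheb and 57.0% of that of Tsc1, against which its medians of 63.1% and 51.4% are read. Over the 12 cultures of the KCl experiment the median gap between a pulldown and its input was -30.6 percentage points for Akt1 and -21.0 for Rheb. The pulldown was lower in 12 of these for Mtor, Rptor, Tsc2 and Akt1, in 11 for Rictor, Rheb and Rps6kb1 and in 9 for Tsc1. Of the 7 other same-numbered pairs, 6 were lower for Tsc1 and 7 for each of the others. The median over all other genes went from 58.6% to 40.5%, and of 5950 genes with enough counts 95.1% were lower in pulldowns, by a median of -15.8 points.

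Rheb shows this difference at the scale of exons. In inputs the fraction of its CDS counts per kb was 3.45 in the first of 8 segments, 0.58 in the fifth and 2.22 in the last, 93 nt on chromosome 5 from 24803664 to 24803756. In pulldowns the last segment had the most, 4.57 per kb, against 1.48 in the first. In DHPG pulldowns the front share of Rheb was 11.4%, 12.1% and 11.2%. For Rps6kb1 the first segment, of 141 nt, had 2.59 per kb in inputs, above each of the other 14 with at most 0.65, but 1.04 in pulldowns, below segments 13 (1.41) and 12 (1.13). The part of mapping and of overlapping transcripts in these profiles was not tested.

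**Figure D5:**
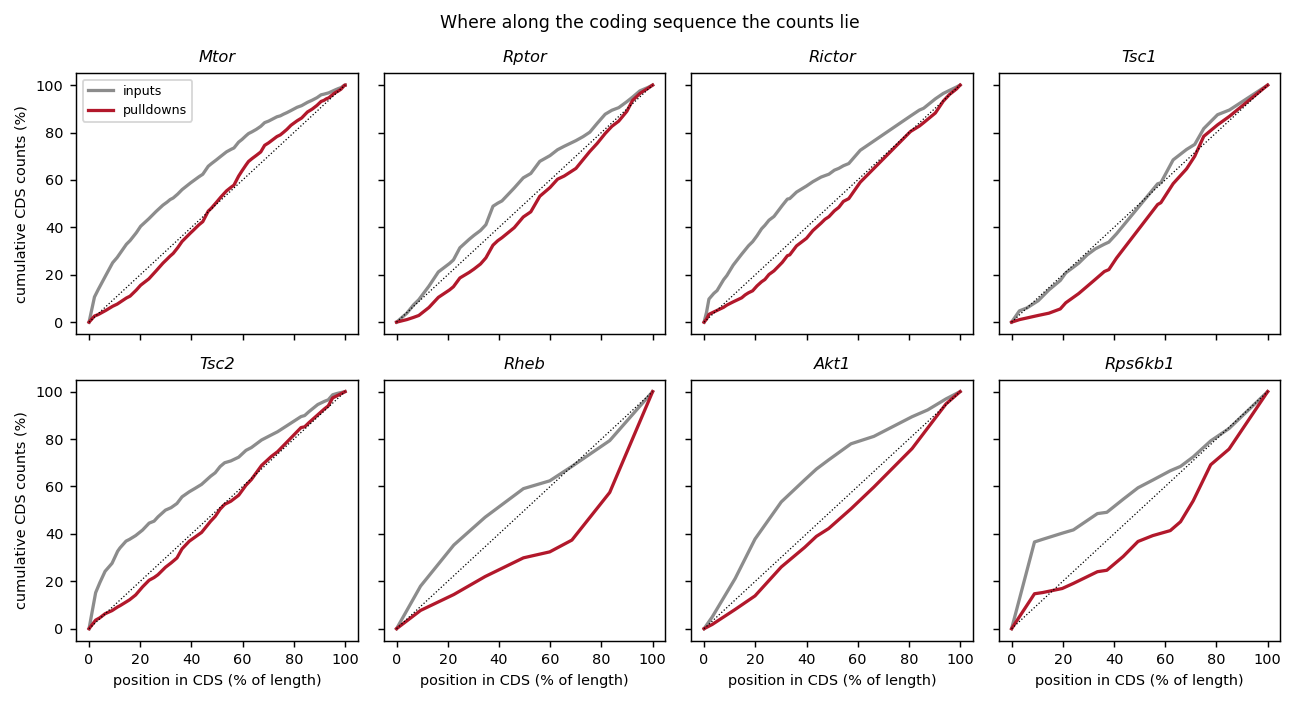
Each panel plots 1 gene, with the cumulative percent of CDS counts, averaged over the 19 inputs or the 19 pulldowns, against the position along the CDS in percent of its length from the start to the stop codon, and a dotted line for an even spread. The line of the inputs lies above that of the pulldowns over nearly all of the CDS, and in Rheb that of the pulldowns climbs steeply over the last segment.

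With KCl the front share of Akt1 in inputs went from 68.6% ± 5.00 to 81.1% ± 7.06 (SD, n = 6 each), by 12.5 points (two-sided exact permutation p = 0.00866, adjusted 0.0462 over the 16 tests), with overlapping ranges. This call was lost without 10 of the 12 inputs in turn: each resting input, and the KCl inputs of replicates 2 and 3. The other 7 genes did not pass, among them Rheb (16.9 points, adjusted exact p = 0.052) and Tsc1 (-13.3 points, adjusted exact p = 0.0623). Leaving out 1 input brought some of them under the threshold: Rheb without the KCl TurboID-PSD95 input of replicate 1 or the resting Pan-TurboID input of replicate 3, Tsc1 without the KCl Pan-TurboID input of replicate 2, and Tsc2 and Rps6kb1 without that of replicate 1. All other genes went from 58.3% to 63.1%, and how many of them would pass this test is not known.

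The wider pathway was described by lists of 79 further genes. In the resting dendritic comparison 24 of 76 tested were higher (31.6%) and 11 lower (14.5%), beside 14.7% and 16.4% of all genes, with a median log2 fold change of 0.24 beside -0.04. In the amino acid arm, which places mTOR complex 1 on the lysosome, 12 of 26 were higher and 5 lower. Its members split: Wdr59, of the GATOR2 complex, was higher by 1.36 (SE 0.24), and the small Ragulator subunits Lamtor4 (-1.58), Lamtor2 (-1.30) and Lamtor5 (-1.24) were lower. Rragc, a Rag GTPase, was lower by -1.29 but had 0.15 and was not called with its transcript of the most counts. On the PI3-kinase side 3 of 12 were higher and 1 lower, with the catalytic subunits Pik3cd (1.47) and Pik3cb (1.39) in front. Rps6kb2, the second S6 kinase, was higher by 1.08 among 13 outputs, of which 4 were higher and 2 lower. Akt relatives had 2 higher and 1 lower of 8, partners of the complexes 2 and 1 of 9, energy and stress brakes 0 and 1 of 5, and the group I receptors with Homer1 1 and 0 of 3. Without replicate 3 only 16 of all genes were called, and none of the 8 genes named here was among them (FDRs from 0.0664 for Wdr59 to 0.184 for Rps6kb2). The lists were not recounted with the CDS length trend removed, which changed the calls of Mtor, Rictor and Rheb in this comparison.

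In KCl inputs 7 of the 76 were higher (9.21%) and 17 lower (22.4%), beside 6.33% and 9.02% of all genes. Of all genes 1996 were called, and 887 without replicate 2 and 515 without replicate 3. Of the genes named here, Pik3cd failed without replicate 2, Fnip1 without replicate 3 and Fnip2 without either. On the PI3-kinase side the insulin receptor substrates went apart, Irs2 up by 1.27 (SE 0.18) and Irs1 down to -1.67 (SE 0.26), and Pik3cd fell (-1.63). That list had 1 higher and 4 lower of 12. Of the Akt relatives 4 of 8 fell and none rose, and of the outputs 4 of 13 fell and none rose, among them Eef2, the elongation factor of translocation, with -1.12 (SE 0.14). Sesn2, a stress-induced inhibitor of the amino acid arm, rose by 1.49 (SE 0.22), Prr5, a partner in mTOR complex 2, by 1.12 and Fnip1, a partner of folliculin, by 0.88, while Fnip2 fell (-0.91). The amino acid arm had 3 higher and 2 lower of 26, the partners 2 and 1 of 9, the brakes 1 and 2 of 5, and the receptor list 0 of 3.

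In TurboID-PSD95 pulldowns 5 of 76 rose (6.58%) and 4 fell (5.26%) with KCl, beside 3.3% and 3.28% of all genes, and without the pulldown of replicate 2 the counts were 5 and 4 again, beside 1.72% and 2.28%. With a replicate number left out, 92 to 1446 of all genes were called, against 855, and of the genes named next for KCl, Eef2 alone passed whichever number was left out. Sesn2 (1.70), Irs2 (1.44) and Prr5 (1.35) were again higher and Irs1 (-1.62) and Eef2 (-1.58) lower. Homer1, the scaffold of group I receptors whose short form is an early response transcript, rose by 1.64 (SE 0.47), and Rps6kb2 (-1.61) and Sesn3 (-0.84) fell, both not called without the pulldown of replicate 2 (-1.31, FDR 0.103, and -0.64, FDR 0.124). In DHPG pulldowns over inputs 42 of 74 were higher (56.8%) and 24 lower (32.4%), beside 40.5% and 39.3% of all genes, led by Pik3cd (1.86), Fnip2 (1.81), the autophagy kinase Ulk1 (1.66) and Pik3cb (1.57), with Lamtor2 (-1.81), Lamtor5 (-1.72), the transcription factor Foxo1 (-1.63) and Homer1 (-1.56) at the low end. The PI3-kinase side had 9 higher and 2 lower of 12 and the outputs 5 higher and 6 lower of 12.

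Genes whose level ran most like that of each member over the 14 group means were taken from 7929 genes with a mean log2 CPM of at least 4. They were Vps8 for Rptor (Pearson r 0.989), Mdn1 for Tsc2 (0.981), Epg5 for Mtor (0.977), Trank1 for Rictor (0.962), Mast1 for Tsc1 (0.961), Adgra3 for Akt1 (0.949), Polr3a for Rps6kb1 (0.92) and Sprtn for Rheb (0.855). The 14 means share cultures between inputs and pulldowns, and these are the best of many.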

How the data were processed

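Per their methods, the authors trimmed reads, cut off molecular identifiers, aligned to mm10 with Rsubread and counted with plastid. Per the file headers, footprint 5′ ends were counted in exon segments, without an offset. The use of strand is not given in the sources used here. Alignment names carry marks for removed rRNA and duplicates. The deposited counts are whole numbers per CDS, 5′ UTR or 3′ UTR segment, in 114 files, with replicates not pooled.

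Of 67238 coding transcripts, 66750 were matched to GENCODE M21 symbols, which gave 22443 genes, each represented by its longest transcript. Tests on CDS counts used edgeR 4.0.16 (R 4.3.3, TMM scaling, filterByExpr, robust quasi-likelihood F test, Benjamini-Hochberg FDR under 0.05). All 24 KCl experiment libraries entered 1 fit, and TurboID-PSD95 pulldowns were set against the average of the inputs of both baits. The averaging of both inputs follows the study. Its methods name quantile-normalized RPKM for the ratios and the likelihood ratio test for significance, so the fit used here differs. Each standard error was the fold change divided by the root of F. RPKM values were computed from the counts with CDS totals as library sizes. Shares per library were compared by exact permutation tests in SciPy 1.17.1. Alternatives were RLE scaling, no filter on low counts, the transcript with the most counts, DESeq2 1.42.0, the likelihood ratio test, removal of each library's lowess trend with log2 CDS length (span 0.5), a replicate block and leaving out replicates. Leaving out the depolarized TurboID-PSD95 pulldown of replicate 2 alone, and each input in the share tests, was chosen after seeing the data.

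The members, lists and named-gene rule were chosen with earlier results of these data known. The rule named the 8 members, Dlg4, Eif4g2, Arc and Fos as checks, in 4 comparisons up to 4 list genes a direction with the largest fold change past the FDR, and for each member the gene with the most similar group means (log2 CPM with a prior of 0.5, mean of at least 4). In the KCl experiment input and pulldown of 1 number were taken as 1 culture: their deviations from group means correlated at 0.344 to 0.705 in 12 of 12 cultures. No 2 libraries were identical, and the chi-square per degree of freedom between replicates was 1.48 to 47.5, where sampling noise gives about 1. The total count per library was 5906281 to 35643247. Intervals cover counting error or the spread between libraries only. On simulated counts for the KCl inputs, 62% of genes changed by 1 on the log2 scale and 87% of those changed by 2 were recovered.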

Additional observations from a re-analysis of the deposited data

How the results depend on the processing

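Of 148 alternatives that kept all libraries, over 24 comparisons, 133 gave a count of called members within 1.5 times the reported one, and 90 of 111 that left out libraries did. Single members kept direction and call in 1978 of 2072 recalculations, with 2 reversals: Mtor pulldown over input in the knockdown turned to -0.23 (rest) and -0.0617 (KCl) with the CDS length trend removed. Of other named genes, Rragc turned from -1.29 to 0.15 in the resting dendritic comparison with the transcript of the most counts. The cause was not tested.

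With the length trend removed, called members went from 3 to 1 in the depolarized dendritic comparison, from 2 to 0 in resting Pan-TurboID and from 6 to 3 in the resting knockdown pulldown over input. In the first it was 5 without the depolarized TurboID-PSD95 pulldown of replicate 2. Depolarized Pan-TurboID went from 1 to 4 with DESeq2 and 2 with the likelihood ratio test, KCl inputs from 1 to 2 with the compared libraries alone, DHPG against resting inputs from 1 to 2 with RLE, no filter or DESeq2, and depolarized knockdown against untreated pulldowns from 1 to 2 with RLE or DESeq2. The replicate block gave 5, 4 and 5 members in the depolarized dendritic, resting and depolarized Pan-TurboID comparisons. Same-numbered DHPG and knockdown libraries did not deviate together (correlations of -0.194 to 0.06), which does not show that they are unpaired. In these experiments the block gave 2 for DHPG against resting inputs and otherwise kept counts of members within 1.5 times.

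Leaving out libraries gave 0 to 3 members in the resting dendritic, 0 to 5 in the depolarized dendritic, 0 to 2 in resting Pan-TurboID, 0 to 1 in depolarized Pan-TurboID, 0 to 3 in KCl inputs, 0 to 3 in TurboID-PSD95 and 0 to 1 in Pan-TurboID KCl pulldowns, 4 to 6 in DHPG against resting pulldowns, 1 to 4 in knockdown KCl inputs and 0 to 4 in depolarized knockdown against untreated pulldowns.

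Over all genes, the resting dendritic count of 4048 was 2578 with the length trend removed and 16 without replicate 3. The depolarized dendritic count of 2340 was 1379 with the trend removed, 4297 with the block and 17 without replicate 3. Resting Pan-TurboID, with 1240, had 371, 3653 with the block, 2128 with DESeq2 and 1896 with the likelihood ratio test, and depolarized Pan-TurboID, with 1138, had 328, 3629, 2249 and 1824. Depth limits Rps6kb1 most, with as few as 18 counts in a library.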

Other observations

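Few footprints of the 8 genes lay in 3′ UTRs. Over all libraries the 3′ UTR held 1.78% of the 5′ UTR, CDS and 3′ UTR counts of Tsc1, 1.07% of those of Akt1, 0.984% of those of Rps6kb1, 0.838% of those of Rptor, 0.527% of those of Rictor, 0.514% of those of Rheb, 0.036% of those of Mtor and 0.007% of those of Tsc2, with 3 counts. The 3′ UTR of Tsc2 shares 693 nt with Pkd1 on the other strand, and that of Rps6kb1 shares 155 nt with Rnft1.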
